A study of Mus musculus with 8 samples.

Results

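The genes described here encode the constitutive proteasome: every gene whose symbol on the array begins with Psma, Psmb, Psmc, Psmd, Psmf or Psmg and a number, apart from the immunoproteasome genes Psmb8, Psmb9 and Psmb10. The rule gave 41 genes of the 19057 named genes on the array, with 72 probes. Of these, 55 probes of 33 genes had a detection p under 0.05 on at least 4 of the 8 arrays and were tested. Psmc3ip fits the rule by its symbol but encodes a meiotic recombination factor, not a proteasome subunit. It is listed apart from the parts of the particle below, but is included in the counts and medians over the 33 genes and in the promoter shares. No probe was named Psmf1.

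Total RNA of whole kidney was measured on Illumina bead arrays, 7 days after unilateral ureteral obstruction (UUO), in which tying off a ureter brings on tubular injury and scarring of that kidney. All animals were adult male mice of the strain given as C57/bk, and all had UUO. One group received a control antimiR and the other anti-miR-214, an antisense inhibitor of the microRNA miR-214, with 4 animals and 4 arrays in each. No unobstructed kidney was analysed here, so each value compares 2 treatments of obstructed kidneys, and whole tissue cannot tell fewer cells of a type apart from less RNA per cell.

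The proteasome degrades proteins tagged with ubiquitin. Its core particle (20S) is a barrel of alpha rings (Psma genes) and beta rings (Psmb genes), whose subunits Psmb5, Psmb6 and Psmb7 cut the peptide chain. The regulatory particle (19S) holds a ring of ATPases (Psmc genes) that unfold the substrate, and non-ATPase subunits (most Psmd genes) that bind ubiquitin chains or remove them. Psmg1 to Psmg4 and Psmd5, Psmd9 and Psmd10 encode chaperones that assist assembly and are not part of the finished particle. When proteasome activity is short, the transcription factor Nfe2l1 is known to raise the transcription of many subunit genes together, through antioxidant response elements in their promoters.

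The targeted microRNA has 2 mature arms in RefSeq (GRCm38.p6), printed here because it is the molecule the treatment was directed at, and the labels do not say which arm. Capitals mark the seed, bases 2 to 8.
miR-214-3p, chr1:162223438-162223459 on the plus strand: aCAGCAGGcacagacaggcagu
miR-214-5p, chr1:162223397-162223418 on the plus strand: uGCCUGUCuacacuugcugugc
The seeds of the arms differ. No probe was read as a measure of either arm.

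RefSeq held a promoter for 33 of the 41 genes, in 35 windows of 250 bases before to 50 after the start. Those with the core of the antioxidant response element, TGACNNNGC on either strand, were Psmb5, Psmb6, Psmc6, Psmd9 and Psmd12. The 250 bases before their starts are printed with the core in capitals, together with those of Psmc5 and Psmd5, the genes with the highest and the lowest change, in which the core was not found.
Psmb5, chr14:54617996-54618245 on the minus strand: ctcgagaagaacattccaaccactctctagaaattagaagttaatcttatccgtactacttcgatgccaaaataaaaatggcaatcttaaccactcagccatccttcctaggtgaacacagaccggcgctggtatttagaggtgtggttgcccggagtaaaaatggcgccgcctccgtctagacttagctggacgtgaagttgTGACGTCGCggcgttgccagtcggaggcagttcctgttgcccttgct
Psmb6, chr11:70525107-70525356 on the plus strand: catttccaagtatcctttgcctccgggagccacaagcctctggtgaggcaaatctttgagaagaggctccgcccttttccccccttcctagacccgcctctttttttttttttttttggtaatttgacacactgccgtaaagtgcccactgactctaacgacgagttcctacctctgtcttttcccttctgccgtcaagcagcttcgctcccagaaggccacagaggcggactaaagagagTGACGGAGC
Psmc6, chr14:45329574-45329823 on the plus strand: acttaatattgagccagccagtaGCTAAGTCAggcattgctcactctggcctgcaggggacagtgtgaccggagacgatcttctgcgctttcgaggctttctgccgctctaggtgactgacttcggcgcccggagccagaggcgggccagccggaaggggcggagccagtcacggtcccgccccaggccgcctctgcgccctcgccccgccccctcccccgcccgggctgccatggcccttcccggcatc
Psmd9, chr5:123227940-123228189 on the plus strand: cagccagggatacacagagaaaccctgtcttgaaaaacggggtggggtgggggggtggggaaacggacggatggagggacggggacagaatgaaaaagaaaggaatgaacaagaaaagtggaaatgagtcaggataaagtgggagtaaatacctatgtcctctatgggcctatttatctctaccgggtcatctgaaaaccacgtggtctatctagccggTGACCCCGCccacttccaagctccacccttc
Psmd12, chr11:107479278-107479527 on the plus strand: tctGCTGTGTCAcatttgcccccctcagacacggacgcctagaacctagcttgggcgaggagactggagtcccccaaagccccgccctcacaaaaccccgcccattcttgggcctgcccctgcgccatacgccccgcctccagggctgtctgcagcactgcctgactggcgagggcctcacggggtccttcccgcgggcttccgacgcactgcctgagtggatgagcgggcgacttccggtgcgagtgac
Psmc5, chr11:106255935-106256184 on the plus strand: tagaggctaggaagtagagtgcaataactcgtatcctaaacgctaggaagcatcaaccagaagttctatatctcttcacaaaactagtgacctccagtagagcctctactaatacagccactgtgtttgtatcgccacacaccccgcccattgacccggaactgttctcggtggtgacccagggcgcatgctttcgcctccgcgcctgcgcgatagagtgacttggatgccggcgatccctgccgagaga
Psmd5, chr2:34870963-34871212 on the minus strand: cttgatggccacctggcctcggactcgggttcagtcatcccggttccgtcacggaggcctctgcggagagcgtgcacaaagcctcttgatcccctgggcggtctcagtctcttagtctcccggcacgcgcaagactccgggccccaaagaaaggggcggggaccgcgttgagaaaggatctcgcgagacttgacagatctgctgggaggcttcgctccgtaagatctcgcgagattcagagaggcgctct
The element was in 5 of the 35 windows (14.3%), against 12.4% of all 32851 promoters of the table. It began 47 bases before the start in Psmb5, and 9 bases before it in Psmb6. CCAAT, the box bound by NF-Y, was in 37.1% of the windows against 37.4% of all, on either strand. The GC box GGGCGG was in 54.3% against 35.7%, in 19 of the 33 genes with a promoter. These included all 5 genes whose brightest probe passed the test, and others that did not pass, such as Psma2, Psmb6 and Psmd14. The nuclear respiratory factor 1 motif was in 14.3% against 2.8%, in Psma2, Psma3, Psma4, Psmc4 and Psmg1. These are letter matches, without evidence of binding in this kidney.

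Most proteasome subunit genes differed little between the treatments. Each gene was read by its brightest tested probe, as normalized log2 intensity, and a gene was called at a limma p under 0.05 after Benjamini-Hochberg adjustment, for which all 18601 tested probes counted. By that rule 1 of the 33 genes was higher with anti-miR-214 (Psmc5), against 12.3% of all 10734 named genes tested. Lower calls were made for 4 genes (Psmd5, Psmd11, Psmd12 and Psmd1), against 9.93% of all named genes, and 28 did not pass. The median log2 change was -0.026, with 15 genes above 0 and 18 below, beside a median of 0.085 over all named genes. The median absolute change was 0.19 against 0.25 over all named genes, with median standard errors (SE) of 0.13 and 0.14. The 95% interval of the change lay within 1.5-fold either way for 26 of the 33 genes, against 49.0% of all named genes; the exceptions were Psmc3ip, Psmc4, Psmc5, Psmd5, Psmd7, Psmd11 and Psmd12.

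The calls depended on how the arrays were brought to one scale. Quantile normalization gave 1 higher and 4 lower. Scaling the arrays to a common median over all probes gave 0 (2 at unadjusted p under 0.05) and 5, with Psmd9 and Psmg1 in and Psmd1 out, while scaling to the median of the tested probes gave 9 and 2, with Psmb2, Psmb3, Psmc4, Psmd4, Psmd7, Psmd8, Psmd13 and Psmg3 added to Psmc5. These settings moved the median of all tested probes from 0.053 to -0.15 and to 0.13, and the median of the proteasome genes from -0.026 to -0.12 and to 0.17. Psmd5 and Psmd11 were called lower under all 3 scalings.

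**Figure D1:**
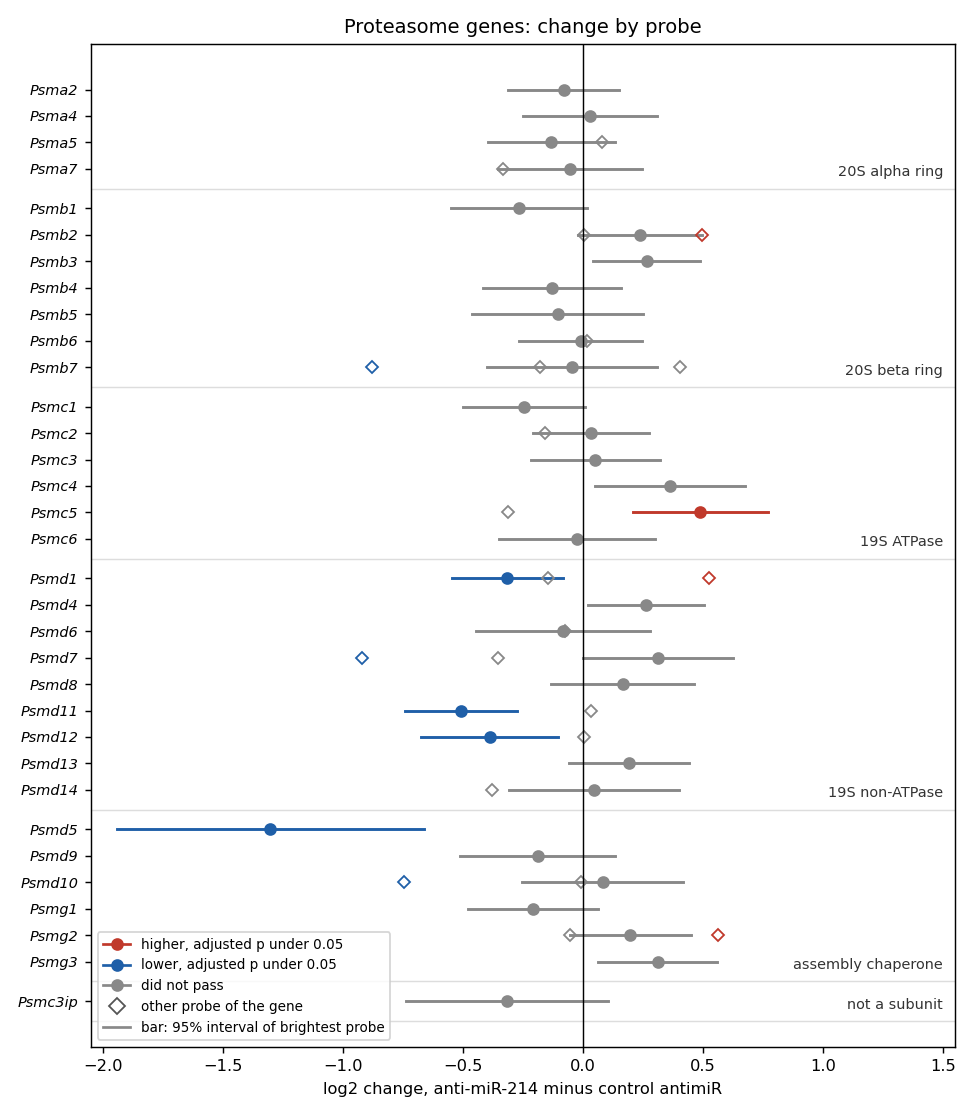
Log2 change (anti-miR-214 minus control) of each of the 33 genes by part of the particle: filled points are the brightest tested probe with its 95% interval, open diamonds the gene's other tested probes, coloured where a probe passed the test. Most intervals cross 0; Psmc5 lies above 0, and Psmd5, at -1.30, lies furthest below.

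In the alpha ring of the core, 4 of 8 genes could be tested and none passed the limma test, nor did any reach an unadjusted p under 0.05. The changes were 0.031 for Psma4, -0.054 for Psma7, -0.079 for Psma2 and -0.13 for Psma5. Psma1, Psma3 and Psma8, which encodes an alpha subunit of the testis, were not detected on any array, and Psma6 was detected on 1 array of each group. Levels of these 4 genes are therefore not given.

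In the beta ring, 7 of 8 genes were tested and none passed the limma test by its brightest probe (1, Psmb3, at unadjusted p under 0.05), with a median change of -0.046. Psmb5 carries the chymotrypsin-like activity. Its log2 intensities were 10.09, 9.97, 9.90 and 10.64 in control replicates 1 to 4, and 10.13, 10.10, 9.94 and 10.01 in the anti-miR-214 replicates. Control replicate 4 was the highest and the other 7 arrays overlapped (change -0.11, adjusted p = 0.654, 95% interval of the fold 0.726 to 1.19). Psmb6, with the caspase-like activity, read 11.77, 11.89, 11.75 and 12.07 in the controls and 11.97, 11.85, 11.74 and 11.89 with anti-miR-214. The groups overlapped throughout (change -0.0098, adjusted p = 0.959, interval 0.831 to 1.19). Psmb7, with the trypsin-like activity, read 11.21, 11.41, 11.34 and 10.71 against 11.14, 11.27, 10.94 and 11.13. Here control replicate 4 was the lowest (change -0.046, adjusted p = 0.851, interval 0.757 to 1.24). For the brightest probes of these 3 genes the intervals leave out changes of 1.5-fold. A dimmer Psmb7 probe was lower, as described below. The structural subunit genes Psmb1 (-0.27, adjusted p = 0.148), Psmb2 (0.24, 0.156), Psmb3 (0.27, 0.0755) and Psmb4 (-0.13) did not pass. Psmb11, the thymus subunit, was not detected on any array.

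In the ATPase ring all 6 genes were tested and Psmc5 was higher. Its brightest probe read 10.68, 10.83, 10.64 and 10.62 in the controls and 11.10, 10.99, 11.19 and 11.46 with anti-miR-214. Every treated array lay above every control, by a mean of 0.49 (SE 0.13, 1.40-fold, adjusted p = 0.0189). The second probe of Psmc5 went the other way, as described below. The other ATPase genes did not pass: the log2 difference was 0.36 for Psmc4 (adjusted p = 0.0801, groups apart; 0.0481, a higher call, with the slide as a block), -0.25 for Psmc1 (0.135), 0.051 for Psmc3, 0.035 for Psmc2 and -0.026 for Psmc6. The only tested Psmc6 probe was near background, with log2 means of 5.93 and 5.90, and was detected on 4 control and 2 treated arrays. Psmc3ip, outside the particle, did not pass at -0.32 (adjusted p = 0.238).

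Among the non-ATPase subunits of the regulatory particle, 9 of 11 genes were tested and 3 were lower. Psmd11, a scaffold subunit of the lid, read 8.37, 8.56, 8.36 and 8.47 in the controls and 7.98, 7.91, 7.87 and 7.97 with anti-miR-214. The groups were apart and tight, 1.42-fold lower (log2 change -0.51, SE 0.11, adjusted p = 0.00763). Psmd12, another scaffold subunit of the lid, read 9.91, 10.13, 10.15 and 9.98 against 9.88, 9.76, 9.50 and 9.48. The highest treated array lay just under the lowest control (-0.39, SE 0.13, 1.31-fold, adjusted p = 0.0482). The other tested probe of Psmd12 was at 0.0052 (adjusted p = 0.982). Psmd1, the large scaffold of the base, read 12.55, 12.37, 12.47 and 12.34 against 12.09, 12.16, 12.12 and 12.11. All treated arrays were lower, by 1.24-fold (-0.32, SE 0.10, adjusted p = 0.0480). With 1 array left out, Psmd12 kept its call only without anti-miR-214 replicate 1 and Psmd1 only without control replicate 4, with adjusted p from 0.0292 to 0.122 for Psmd12 and 0.0481 to 0.116 for Psmd1. Psmd11 kept its call whichever array was left out, with adjusted p from 0.0122 to 0.0289.

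Psmd4, which encodes a receptor for ubiquitin chains, read 12.68, 12.51, 12.56 and 12.61 in the controls and 12.88, 12.77, 13.00 and 12.75 with anti-miR-214. The groups did not overlap, but the change of 0.26 did not pass (adjusted p = 0.100, interval of the fold 1.01 to 1.42). Psmd14, the deubiquitinase of the lid, read 9.07, 9.17, 9.44 and 8.64 against 9.08, 9.04, 9.13 and 9.24. The groups overlapped (0.045, adjusted p = 0.855), and its other probe was at -0.38 (adjusted p = 0.0621). The remaining lid subunits Psmd7 (0.31), Psmd13 (0.19), Psmd8 (0.17) and Psmd6 (-0.082) did not pass. Psmd2 and Psmd3 were not detected on any array.

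Of the 7 assembly chaperone genes, 6 were tested and Psmd5 was lower. Psmd5 holds ATPase subunits during assembly of the base. Its only tested probe read 7.07, 7.23, 7.42 and 7.41 in the controls and 6.93, 6.13, 5.56 and 5.31 with anti-miR-214. All treated arrays were lower but spread over more than 1 log2 unit, and the probe was above background on 4 control arrays and on treated replicates 1 and 2, but not on 3 and 4. The change was -1.30 (SE 0.29, 2.47-fold, adjusted p = 0.009998). It was -0.58 without background correction, and -0.76 (adjusted p = 0.0679) without anti-miR-214 replicates 3 and 4. Psmg3, a partner in alpha ring assembly, did not pass at 0.31 (adjusted p = 0.0630), with groups that did not overlap. Psmg2 (0.20), Psmd10 (0.083), Psmd9 (-0.19) and Psmg1 (-0.21) did not pass, and Psmg4 was not detected on any array.

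**Figure D2:**
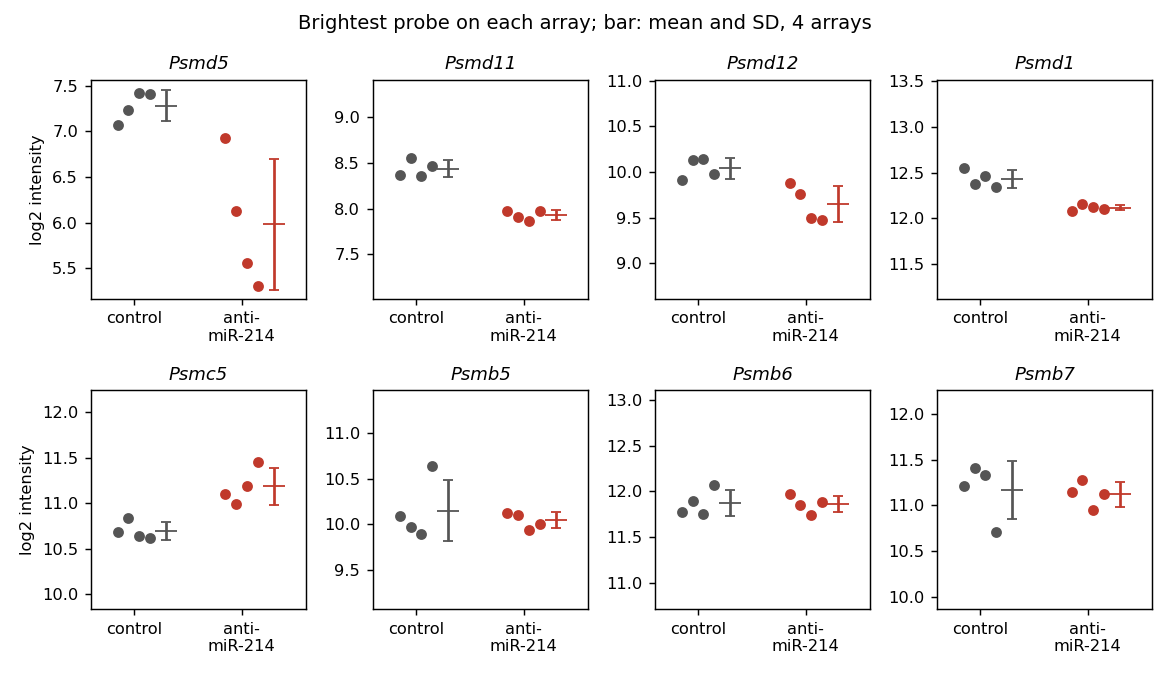
Log2 intensity of the brightest probe on each array for the 5 called genes and the catalytic genes Psmb5, Psmb6 and Psmb7; points are the 4 arrays of a group in the order of their replicate numbers, and the bars give mean and SD. The groups are apart in the called genes, with treated Psmd5 values between 5.31 and 6.93, and overlap in the catalytic genes; the axes differ in level between genes.

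**Figure D3:**
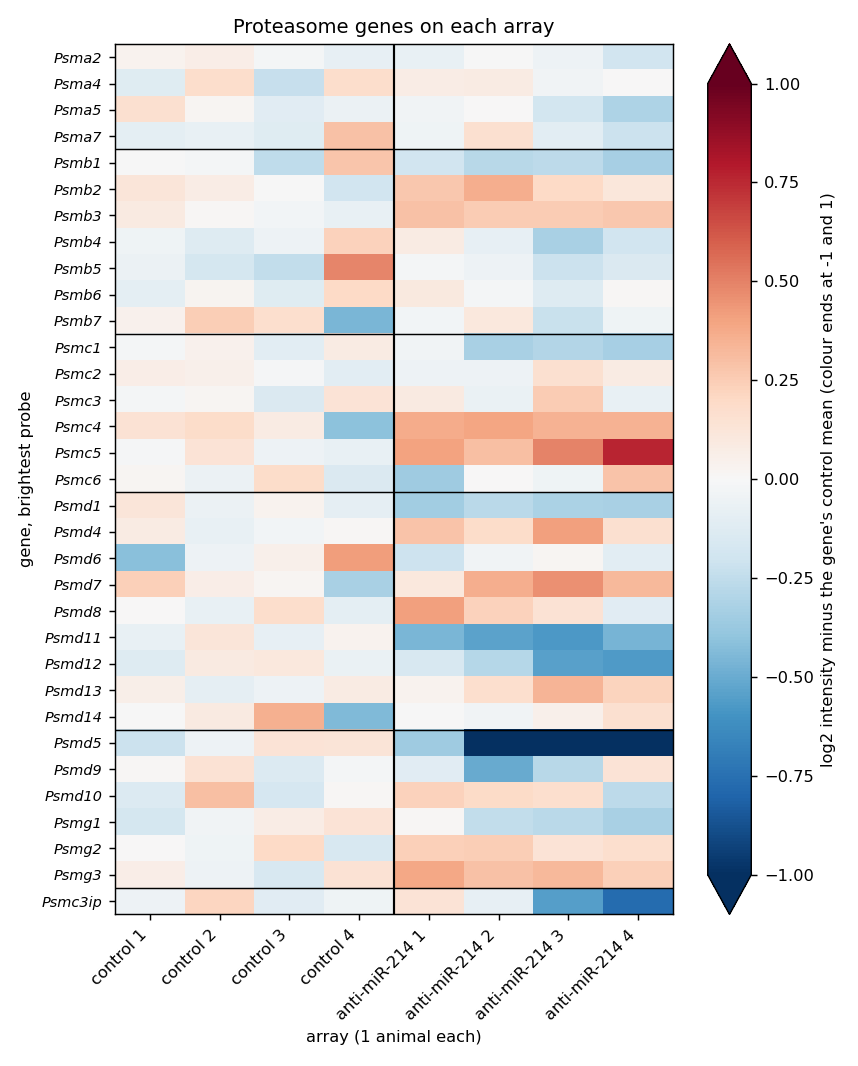
Log2 intensity of each gene's brightest probe on each of the 8 arrays, minus the mean of the 4 control arrays, with lines between the parts of the particle. The colour scale ends at -1 and 1, and Psmd5 on anti-miR-214 replicates 2 to 4 lies below its end; most other genes stay paler in both groups.

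In 9 of the 33 genes the groups did not overlap: the 5 called genes and Psmb3, Psmc4, Psmd4 and Psmg3, these 4 higher with anti-miR-214. Over all named genes, 27.3% of the brightest probes had groups that did not overlap. Counting every tested probe, the groups were apart in 13 of 55, against 28.9% of all tested probes.

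Several proteasome genes had probes that differed in what they showed. Over all 55 tested probes, 4 were higher and 7 lower, against 11.8% and 13.8% of all tested probes. The 6 called probes that were not the brightest of their gene were those of Psmb2 (0.50), Psmd1 (0.52) and Psmg2 (0.56), higher, and of Psmb7 (-0.88), Psmd10 (-0.74) and Psmd7 (-0.92), lower. The Psmb2 call was lost without control replicate 2, 3 or 4 or without anti-miR-214 replicate 3 or 4 (adjusted p up to 0.0808). This Psmb2 probe was dim, with log2 means of 6.03 in the controls and 6.53 with anti-miR-214. Its call was also lost without background correction (0.20, limma adjusted p = 0.0684). For the 15 genes with several tested probes, each dimmer probe was set against the brightest on the same arrays. This cancels a shift that is equal for all probes of an array. It does not cancel an array-wide shift that differs between dim and bright probes, such as the probe gap described below. Of 22 such pairs, 6 (27.3%) differed in their change (limma, adjusted over all 5307 pairs on the array), each in another gene. That share was close to the 28.1% of all pairs. The changes had opposite signs in 14 of the 22 pairs (63.6%), a larger share than the 35.0% of all pairs, and this contrast was not tested. Some of these pairs held changes near 0, such as Psmb6 (-0.0098 and 0.019), where a sign says little. The share of opposite signs is therefore no measure of how often probes differed.

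Psmd1 had the pair with the smallest p. Its dimmer probe read 7.89, 8.03, 7.99 and 8.17 in the controls and 8.45, 8.61, 8.56 and 8.57 with anti-miR-214, higher on every treated array (adjusted p = 0.00778), while the brightest probe was lower on every one. The pair differed by 0.84 (SE 0.13, adjusted p = 0.00141), and the other probe of the gene was at -0.15. The brightest and the dimmer probe each separated the groups, in opposite directions, while the groups overlapped by that other probe.

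Psmd10, which encodes the chaperone also called gankyrin, had a brightest probe at 10.52, 10.95, 10.48 and 10.67 against 10.89, 10.84, 10.82 and 10.40. Its dimmer probe read 8.83, 9.05, 8.89 and 8.86 against 8.83, 8.24, 8.06 and 7.51, and was lower (adjusted p = 0.0357). The pair differed by -0.83 (SE 0.18, adjusted p = 0.00665), and treated replicate 1 of the dimmer probe lay with the controls. The lower call of this probe was lost without any 1 control array or without anti-miR-214 replicate 3 or 4 (adjusted p up to 0.0890).

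Psmd7, the lid partner of Psmd14, had a brightest probe at 10.92, 10.75, 10.70 and 10.36 against 10.79, 11.05, 11.14 and 11.01, which did not pass (adjusted p = 0.126). A dimmer one read 9.25, 9.59, 9.49 and 9.74 against 9.04, 8.79, 8.27 and 8.29 and was lower (adjusted p = 0.00716). The difference was -1.23 (SE 0.27, adjusted p = 0.00710), and the remaining probe was at -0.36 (adjusted p = 0.355). The direction for Psmd7 was thus not settled by its probes.

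For Psmc5, the dimmer probe read 10.67, 10.84, 10.77 and 10.36 in the controls and 10.62, 10.40, 10.24 and 10.12 with anti-miR-214. It overlapped between the groups and did not pass (-0.31, adjusted p = 0.144), and it differed from the brightest by -0.80 (SE 0.19, adjusted p = 0.00988). The higher call of Psmc5 therefore rests on 1 of its 2 probes.

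For Psmb7, a dimmer probe read 10.35, 10.75, 10.61 and 9.67 against 10.09, 9.64, 9.16 and 8.99 and was lower (adjusted p = 0.0382). It differed from the brightest by -0.83 (SE 0.21, adjusted p = 0.0134), and other Psmb7 probes were at -0.18 and 0.40 (adjusted p of the latter 0.0666). The lower call of the dimmer probe was lost without control replicate 1, 2 or 3 or without anti-miR-214 replicate 3 or 4 (adjusted p up to 0.104). For Psmd11, the dimmer probe read 6.71, 7.00, 7.12 and 6.82 against 6.70, 6.83, 7.26 and 6.99, a change of 0.033, and differed from the brightest by 0.54 (SE 0.17, adjusted p = 0.0325). The mean over all tested probes of a gene left 0 of the 33 genes higher and 1, Psmd5, lower by limma (6 higher and 4 lower at unadjusted p under 0.05), while 22.7% of all named genes were called under the same averaging.

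**Figure D4:**
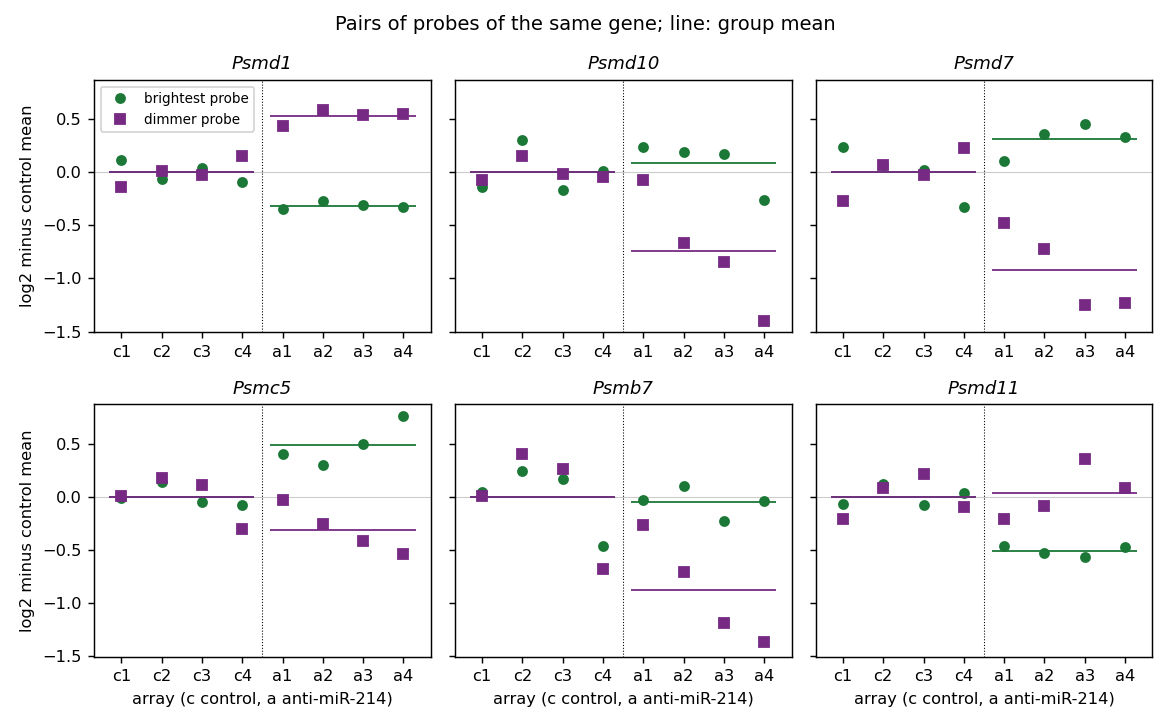
Log2 intensity on each array, minus the probe's control mean, for the 6 genes with a called pair: circles are the brightest probe, squares the dimmer one, lines the group means. In Psmd1 the dimmer probe is higher and the brightest lower on every anti-miR-214 array; in Psmd7, Psmd10, Psmc5 and Psmb7 the treated mean of the dimmer probe lies below that of the brightest.

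The arrays of the groups differed in how many probes were detected. The probes detected on an array numbered 19178 ± 284 (SD, n = 4) in the controls and 17378 ± 438 (SD, n = 4) with anti-miR-214, without overlap (exact two-sided permutation test, p = 0.0286, the smallest that 4 against 4 allows). The log2 gap between dimmer and brightest probes of a gene was averaged over all pairs on each array, with the proteasome genes left out. This probe gap was -1.73 ± 0.031 in the controls and -1.85 ± 0.038 with anti-miR-214 (SD, n = 4 each, exact permutation p = 0.0286). The raw median intensity was 160.3 ± 10.4 and 160.9 ± 9.09 (SD, n = 4 each; exact permutation p = 0.914), and the raw upper quartile 306.6 ± 20.8 and 269.3 ± 20.6 (SD, n = 4 each; exact permutation p = 0.0571). With the probe gap as a covariate, 0 proteasome genes and 0 of the 22 pairs passed the limma test (0 genes and 1 pair at unadjusted p under 0.05), and 2 of all tested probes. The part of these array measures in the probe differences cannot be told apart from the treatment. Without anti-miR-214 replicates 3 and 4, where the dimmer probes of Psmd7, Psmd10 and Psmb7 and the Psmd5 probe were lowest, 0 genes (2 higher and 3 lower at unadjusted p under 0.05) and 1 pair passed, with 437 higher and 962 lower among all probes.

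The median of the proteasome genes against the control mean was -0.0055, 0.023, -0.025 and -0.021 on control arrays 1 to 4 and 0.0083, -0.0025, -0.042 and -0.073 on the treated arrays. Treated replicates 3 and 4 were the lowest of all, and the groups overlapped. Replicates 1 to 3 of each group shared a slide, as the array positions in the headers show, and replicate 4 of each lay on another. Within the first and the second slide the log2 difference was -0.51 and -0.50 for Psmd11, -0.35 and -0.50 for Psmd12, -0.34 and -0.23 for Psmd1, and 0.37 and 0.84 for Psmc5. On the first slide alone Psmd11 kept its call, while Psmc5, Psmd1, Psmd12 and Psmd5 lost theirs. Psmd5 was at -1.04 there (limma, adjusted p = 0.0540), and on the second slide its treated array was not above background. The second slide holds 1 array of each group and gives no test.

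Among other genes of ubiquitin and proteasome function, 30 of the 32 on the array were tested, and 4 were higher and 3 lower, near the 12.3% and 9.93% of all named genes. Their median change was 0.10, beside 0.085 over all named genes. The ubiquitin-activating enzyme gene Uba6 (0.80, adjusted p = 0.00988), the proteasome-binding Ecpas (0.59, 0.0131), the shuttle factor Ubqln4 (0.52, 0.00842) and the NF-Y subunit Nfyb (0.43, 0.0238) were higher. Other probes of Uba6 (0.17) and Ecpas (0.18 and 0.21) did not pass. Lower were Psmb8 (-1.34, adjusted p = 0.0211), the activator subunit Psme2 (-0.47, 0.0447) and Nfe2l2. The second Psmb8 probe did not pass (-0.14, adjusted p = 0.664). Dimmer probes of Ubqln1 (-1.09, adjusted p = 0.000742, and -0.55, 0.0123) and Uchl5 (-0.91, 0.00388) were called lower by limma. The Ubqln1 probes were each detected on 4 control arrays, but on only 0 and 1 treated arrays. Their treated values were thus near background, and the size of these falls is uncertain. The brightest probes of Ubqln1 (0.18) and Uchl5 (0.074) did not pass. By brightest probe with arrays scaled to the median of the tested probes, 11 genes were higher and 3 lower, and with the median of all probes 2 and 6. Psmb8 lost its call without control replicate 3 or 4 or anti-miR-214 replicate 3, Nfyb without control replicate 2 or 4 or anti-miR-214 replicate 3, and Psme2 without any 1 control or without anti-miR-214 replicate 3 or 4, which left 3 to 4 higher and 1 to 4 lower. Pomp, which matures the core particle (0.034, adjusted p = 0.881), and Psme1, partner of Psme2 (0.10, 0.543), did not pass.

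Nfe2l2 encodes the stress-response factor Nrf2, which binds the antioxidant response element. Its tested probe read 8.67, 8.76, 8.77 and 8.57 in the controls and 7.79, 7.95, 7.65 and 7.78 with anti-miR-214. The groups were well apart (-0.90, 1.87-fold lower, adjusted p = 0.000805), and Nfe2l2 was called lower under every alternative run except the probe gap as a covariate. Nfe2l1 read 11.74, 11.71, 11.54 and 11.47 against 11.77, 11.87, 11.91 and 11.83. Its groups did not overlap either, yet the change of 0.23 did not pass (adjusted p = 0.147). Of the 5 genes whose promoter held the element core, printed above, Psmd12 alone was called. Of all named genes, 22.3% were called in either direction, so 1 of 5 does not set these genes apart. The differences for Psmb5, Psmb6, Psmc6 and Psmd9 were -0.11, -0.0098, -0.026 and -0.19, with the Psmc6 probe near background.

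Psmb8, Psmb9 and Psmb10 take the places of Psmb5, Psmb6 and Psmb7 in the immunoproteasome of immune and cytokine-exposed cells. The log2 difference of Psmb8 and Psmb5 averaged 0.43 in the controls and -0.80 with anti-miR-214, lower on all 4 treated arrays. The fall of 1.23 had an exact two-sided permutation p of 0.0286, and 0.143 adjusted over the 5 such differences. By the second Psmb8 probe the groups were -0.030 apart (exact permutation p = 0.914). For Psmb9 against Psmb6 the value was -0.076 (p = 0.8), and for Psmb10 against Psmb7 it was 0.27 (p = 0.229) and 0.077 (p = 0.8286) by its probes, all by the same exact permutation test.

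The tissue markers were those of kidney: all 6 epithelial genes were detected and none passed, with summed linear levels of 38113 to 43997 in the controls and 35520 to 44667 with anti-miR-214. Of the macrophage list 4 of 5 genes were tested and 1, Lyz2, was lower (summed levels 8468 to 9734 against 2863 to 5798). The macrophage genes Csf1r (-0.47), Adgre1 (-0.46) and C1qa (-0.096) did not pass. The fibroblast list had 3 of 4 lower (7608 to 12006 against 4693 to 8219), and the endothelial list 2 of 2 tested (963 to 1672 against 363 to 969), with Kdr not detected. Of the lymphocyte list 1 of 3 was tested and did not pass, with Cd8a not detected. Of the podocyte list 1 of 2 genes, Nphs1, was on the array, and it was higher (80.8 to 88.2 against 112 to 135). Nphs1 was dim, with log2 means of 6.39 and 6.89, and its raw intensities overlapped between the groups. These marker levels cannot tell a change in cell makeup from a change in RNA per cell. Whether cell makeup plays a part in the proteasome values was not tested.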

How the data were processed

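The main deposited table, per the file headers, gives an intensity that is not normalized and a detection p-value per array, over 45281 probes and 8 arrays. The steps between scanner and table are not given in the sources used here. Processed intensity values of the same arrays, from another deposited table, were ranked as the first within each array, with an upper quartile of 147.7 on every array, medians of 20.2 to 20.4 and 29.0% to 29.2% of values below 0, and served as an alternative. Their centring and method are unknown. Here, intensities were background-corrected with the negative controls inferred from detection p-values, quantile normalized (limma 3.58.1 neqc, R 4.3.3, offset 16) and put on a log2 scale. Probes with detection p under 0.05 on at least 4 arrays (18601) were tested with lmFit and eBayes, control against anti-miR-214, 4 against 4, with Benjamini-Hochberg adjustment at 0.05. Groups came from the sample titles and slides from the headers. The design text counts 4 animals per group, so arrays stand for animals. The number of arrays limits the precision.

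The array annotation gave 34885 probes 1 symbol, 18 several and 10378 none; symbols were checked against RefSeq and 0 changed. The fit was tested on simulated data, where small changes were often missed, so genes that did not pass may still differ. The members and gene lists were chosen with earlier results of these data known. Every member gene was named; values on each array were given for called genes, for Psmb5, Psmb6, Psmb7, Psmd14 and Psmd4 and for up to 6 genes with disagreeing probes, and of the other genes those called and Nfe2l1, Pomp, Psme1 and Psmb8 were named. Scalings, filters, left-out arrays, slide and replicate blocks, array weights and the probe gap were alternatives.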

Additional observations from a re-analysis of the deposited data

Results flagged for a closer look

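Each of the 55 tested probes was looked at in each group for an array far from the other 3, by Dixon's test at its 95% critical value for 4 arrays. Of 110 such groups, 4 stood out, where chance gives about 1 in 20. The brightest Psma7 probe was high on control replicate 4, at 11.68 against 11.31 on the nearest control (gap over range 0.880). Psmc4 was low on the same array, at 11.20 against 11.70 (0.832). Psmc1 was high on anti-miR-214 replicate 1, at 10.31 against 10.05 (0.858). The brightest Psmd10 probe was low on anti-miR-214 replicate 4, at 10.40 against 10.82 (0.868).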

How the results depend on the processing

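Over all alternatives, 1 higher, 4 lower and a median log2 change of -0.026 became 0, 5 and -0.12 with arrays scaled to their median; 9, 2 and 0.17 with scaling to the median of the tested probes (added after the data were seen, as were all recounts of pairs and of other pathway genes); 1, 4 and -0.070 with cyclic loess; 4, 4 and -0.010 without background correction; 1, 2 and -0.046 with the authors' processed values; 3, 4 and -0.018 without a filter; 1, 3 and -0.0098 with detection on all 8 arrays; 2 (Psmc4 added), 4 and -0.026 with the slide as a block; 2, 4 and -0.00032 with array weights; 0, 1 and 0.048 on slide 1 alone; 0, 0 and 0.0095 without anti-miR-214 replicates 3 and 4; and 0, 0 and 0.11 with the probe gap as covariate. Counting every probe gave 4 and 7 with a median of -0.046, and averaging a gene's probes 0, 1 and -0.077. Leaving out each array in turn kept 1 higher, gave 2 to 3 lower and a median of -0.047 to 0.045, above 0 only without control replicate 4. The number of differing pairs was 6, and 5 to 8 under the alternatives except for 1 without anti-miR-214 replicates 3 and 4 and 0 with the probe gap. Of the other pathway genes, 4 were higher and 3 lower; these became 2 and 6 with scaling to the median, 11 and 3 with tested probes, 2 and 1 on slide 1 alone, 1 and 1 without anti-miR-214 replicates 3 and 4, 0 and 0 with the probe gap (0 and 1 at unadjusted p under 0.05), 4 and 1 without a filter, and 4 and 2 with the authors' values, and 3 to 4 and 1 to 4 with an array left out. Changes over all tested probes were 2195 higher and 2566 lower, 551 and 4509 with arrays scaled to their median, 3455 and 2297 with tested probes, 1604 and 2958 with cyclic loess, 1075 and 1474 on slide 1 alone, 437 and 962 without anti-miR-214 replicates 3 and 4, and 0 and 2 with the probe gap.

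The labels do not say whether replicate numbers pair the animals, though same-numbered arrays had neighbouring positions on the slides. Deviations of same-numbered arrays from their group means correlated at 0.015, 0.063, 0.051 and 0.20, and not every array correlated best with its own number. Such correlations cannot exclude a paired design. With the replicate block, 1 gene (Psmc5) was higher and 2 (Psmd11 and Psmd5) lower, so Psmd1 and Psmd12 lost their calls. The median stayed at -0.026 and the pair count at 6.

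Of the called probes, Psmd11 and the dimmer Psmd7 probe passed in 20 of 22 settings, Psmc5 in 18, Psmd5 in 18 of the 21 where it was tested, and the brightest probes of Psmd1 and Psmd12 in 8. The dimmer Psmd1 probe, which was higher, passed in 19. Single changes that turned sign were, by setting: scaling to the median, Psmc3 -0.050, Psmd10 -0.019, Psmd14 -0.16 and Psmg2 -0.0049; cyclic loess, Psma4 -0.013 and Psmc3 -0.0047; slide 1 alone, Psma7 0.10, Psmb5 0.069, Psmb6 0.048, Psmc2 -0.018, Psmd14 -0.14 and Psmd6 0.065; without anti-miR-214 replicates 3 and 4, Psma7 0.056, Psmb4 0.00049, Psmb6 0.036, Psmb7 0.040, Psmc2 -0.052, Psmc3ip 0.029 and Psmd14 -0.019; array weights, Psma7 0.030, Psmb5 0.00032, Psmb6 0.0099, Psmc2 -0.00032 and Psmd14 -0.050; the probe gap, Psma7 0.18, dimmer Psmb2 -0.11, Psmb4 0.31, Psmb5 0.25, Psmb6 0.25, Psmc2 -0.22, Psmc3ip 0.22, dimmer Psmd10 0.0069, Psmd13 -0.021, Psmd14 -0.14, Psmd5 0.11, Psmd6 0.23, Psmd7 -0.25 and Psmg1 0.23; and scaling to tested probes, Psma2 0.24, Psma5 0.13, Psma7 0.14, Psmb4 0.17, Psmb5 0.046, Psmb6 0.23, Psmb7 0.14 and Psmc6 0.081. With an array left out, changes spanned -0.047 to 0.090 for Psma4, -0.12 to 0.045 for Psma7, -0.19 to 0.057 for Psmb5, -0.050 to 0.056 for Psmb6, -0.20 to 0.036 for Psmb7, -0.0062 to 0.064 for Psmc2, -0.018 to 0.098 for Psmc3, -0.13 to 0.083 for Psmc6, -0.10 to 0.16 for Psmd14 and -0.22 to 0.057 for Psmd6. The cause of these moves was not tested.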
